A study of Oryza sativa with 10 samples.

Results

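Gene expression in the filling rice seed was set against that in the organs of the young seedling. The comparison held 8 of the 10 arrays of the series: 2 of embryo and 2 of endosperm, both from seeds 6 days after anthesis, and 2 of leaf and 2 of root, both from seedlings 7 days old. All plants were Oryza sativa of the japonica cultivar Zhonghua 11, grown in a phytotron at 28 °C by day and 22 °C by night, with no treatment named. The other 2 arrays, of whole seedlings 10 days old, entered only the choice of probe sets to test, the estimate of spread and the closing values. Embryo and endosperm counted equally on the seed side, and leaf and root counted equally on the organ side. A probe set is the group of short probes on the array that together read 1 transcript. It was counted only if its mean in both seed tissues lay on the same side of its mean in both organs.

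All 57258 probe sets that were not controls were considered, and the 30014 that reached a signal of 100 on 2 or more of the 10 arrays were tested. Signals are on a linear scale with a trimmed mean of 500 on every array, and differences are given as log2(signal + 16), seed minus organ, ± SE. Adding 16 understates the fold difference of weakly expressed genes. A call needed an adjusted p under 0.05 in limma (Benjamini-Hochberg over all 30014), a difference of 2-fold or more, and the side rule met. Where a tissue is given 1 value, it is the mean ± SD of its 2 arrays. Each tissue had 2 biological repeats, so the number of arrays limits the precision, and the p-values rest on a spread shared by the 5 tissues. They measure how far these tissues stood apart relative to repeats, not how seed parts in general differ from organs. With the 4 tissues themselves as the units, the smallest exact p is 0.333. Numbers in brackets after a symbol are the gene identifier and the chromosome in the reference gene table.

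As background, the cereal endosperm stores starch, made from imported sucrose, and storage proteins, mainly glutelins and prolamins, which enter protein bodies through the endoplasmic reticulum. The embryo lays down the axis of the next plant and builds up late embryogenesis abundant (LEA) proteins before it dries. The leaf of a seedling fixes carbon in chloroplasts, and its root takes up water and minerals.

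The arrays were not of equal quality. The log2 signals of the repeats correlated at 0.972 or more in embryo, leaf and seedling, at 0.926 in endosperm and at 0.905 in root, and 26.2% of tested probe sets in endosperm and 25.0% in root were over 2-fold apart between repeats. The ratio of 3′ to 5′ probe sets for Gapdh, a measure of RNA integrity, was 1.65 to 1.82 in embryo, 4.71 to 5.28 in endosperm, 26.3 to 29.1 in leaf, and 2.04 in root 1 against 24.0 in root 2. Summed signal of the 11 photosystem and light-harvesting genes was 8059 in endosperm 1 but 44424 in endosperm 2, and 45966 in root 1 but 15667 in root 2, against 85903 to 103663 in leaf and 7986 to 8219 in embryo. The 3′ to 5′ ratio of dap, a bacterial control transcript, was 143 in endosperm 1 and 3.36 to 7.23 on the other 9 arrays. With the Gapdh ratio as a covariate 3472 probe sets were seed-high and 5025 organ-high, against 4306 and 6310 without it, and 22 named probe sets lost their call. The fit gave each tissue its own mean, so the effect of the covariate was estimated only from differences between repeats. In this ratio they were by far the widest in root. Differences in RNA integrity between tissues, as between embryo and leaf, cannot be told apart from differences of tissue. List counts that this covariate moved by over 1.5 times are given beside the list. Without endosperm 1 and root 2 the counts were 4577 and 5756, and without endosperm 2 and root 1 they were 4349 and 7009.

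Of the tested probe sets, 4306 were higher in seed than in the organs (14.3%) and 6310 were lower (21%). The first set covered 1982 genes and the second 4258, and the table at hand held a readable symbol for 290 and 648 of them. The median difference was 1.65 in the seed-high set and -2.18 in the organ-high set, against -0.12 over all tested probe sets. The seed-high set had a median signal of 687 (embryo), 957 (endosperm), 112 (leaf) and 148 (root). In the organ-high set the medians were 102, 97.6, 751 and 724 in the same order. Both organ means were under 100 for 1770 seed-high probe sets (41.1%), and both seed means for 2549 organ-high ones (40.4%). All 4 seed arrays lay above all 4 organ arrays for 3973 of all tested probe sets (13.2%) and below them for 4881 (16.3%). Among those called, the arrays did not overlap for 3167 seed-high (73.5%) and 4418 organ-high probe sets (70.0%). A gene lower in a whole tissue may be expressed in fewer of its cells or at a lower level per cell, and these cannot be told apart.

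**Figure D1:**
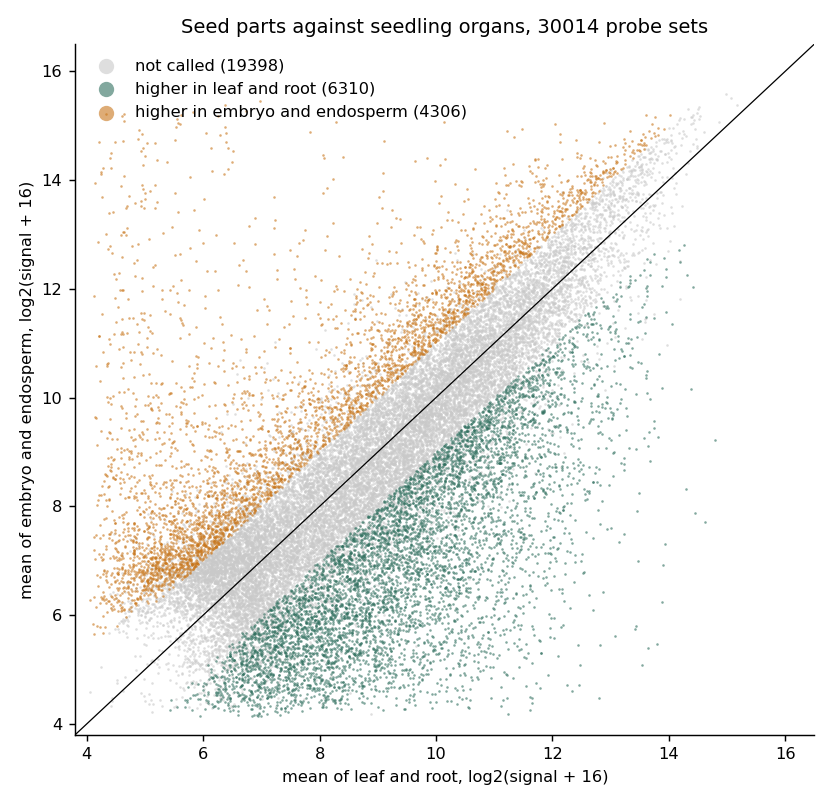
Mean log2(signal + 16) of each tested probe set in the seed tissues against its mean in the seedling organs, with seed-high probe sets in orange, organ-high ones in green and the line of equality in black. The 6310 organ-high probe sets outnumber the 4306 seed-high ones, and the few points in the upper left are genes such as GLUA-1 and RA5.

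The split between the sets depended on how the arrays were scaled. Of all calls, 40.6% were higher in seed with the trimmed mean, 47.8% after quantile normalization (5134 higher, 5607 lower), 30.2% after median scaling (3229 and 7460) and 17.4% with the hybridization spike-ins as the standard (1963 and 9300). The median over all tested probe sets moved by 0.14, -0.23 and -0.55 log2 units in these 3 settings. Directions of gene lists below are those under the trimmed mean. The balance of higher and lower calls turned after median scaling and with the spike-ins for the cell cycle, small RNA, GH3 and PIN, and phosphate starvation lists, and with the spike-ins alone for the heat shock, endoplasmic reticulum and ribosomal lists. The share of tested probe sets that could be assigned to exactly 1 gene was 64.6%, but 50.8% in the seed-high set and 74.6% in the organ-high set.

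The seed-high genes with the widest gaps encoded stores of the grain and the proteins around them. The gap is the smallest difference between any seed tissue mean and any organ mean. The 12 genes with the widest gap were ranked among those with a readable symbol and no overlap between arrays. Where a gene had several such probe sets, the 1 with the widest gap was taken, in both directions. They were the glutelin genes GLUA-1 (4327027, chromosome 1), GLUA-3 (4333164, chromosome 3), GLUB-5 (4328968, chromosome 2), GluC (4328877, chromosome 2) and GLUA-2 (4348563, chromosome 10), a prolamin gene (4342688, chromosome 7), the alpha-amylase and trypsin inhibitor genes RA14 (4342723, chromosome 7) and RA5 (4342727, chromosome 7), the storage vacuole aquaporin OsTIP3 (4348981, chromosome 10), the lipid transfer protein LTP-2 (4331362, chromosome 3), the sucrose synthase OsSUS3 (4343910, chromosome 7) and the zinc finger protein OsC3H1 (4327128, chromosome 1). Adjusted p in limma was at most 8e-08 for these 12.

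GLUA-1 gave signals of 8881 and 12612 (embryo), 50485 and 39544 (endosperm), 4.17 and 4.62 (leaf) and 9.5 and 2.75 (root). Every seed array was far above every organ array, and endosperm exceeded embryo on both repeats. The difference was 10.01 ± 0.25. GluC, another glutelin, gave 3889 and 6075 (embryo), 40646 and 30584 (endosperm), 10.2 and 1.3 (leaf) and 1.38 and 1.1 (root). No organ signal passed 11 and no embryo signal was under 3888, and the difference was 9.42 ± 0.27. OsTIP3, which forms water channels in the membrane of storage vacuoles, gave 33678 and 27197 (embryo), 49817 and 41741 (endosperm), 48.2 and 66.2 (leaf) and 93.2 and 42.9 (root). Endosperm was above embryo by less than 2-fold for it, and the seed to organ difference was 8.93 ± 0.23. LTP-2, a lipid carrier, gave 23411 and 23738 (embryo), 25708 and 22332 (endosperm), 38.9 and 33.4 (leaf) and 122 and 168 (root). Embryo minus endosperm was -0.02, root was above leaf, and the difference was 8.03 ± 0.19. OsSUS3, which splits sucrose for starch synthesis, gave 10107 and 9153 (embryo), 29368 and 31325 (endosperm), 44.9 and 58 (leaf) and 32.3 and 25.2 (root). The difference was 8.29 ± 0.24, with endosperm higher than embryo. OsC3H1 gave 2413 and 2485 (embryo), 22446 and 18488 (endosperm), 1.05 and 8.64 (leaf) and 6.89 and 4.68 (root), a difference of 8.39 ± 0.25, and of the 12 it had the widest step between embryo and endosperm. The other 6 genes differed by 8.60 to 9.90. The probe sets of GLUA-1, prolamin, OsTIP3, RA14, RA5 and GLUA-2 are of the kind that can bind near-identical copies, so for these families the signal cannot be assigned to 1 copy.

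**Figure D2:**
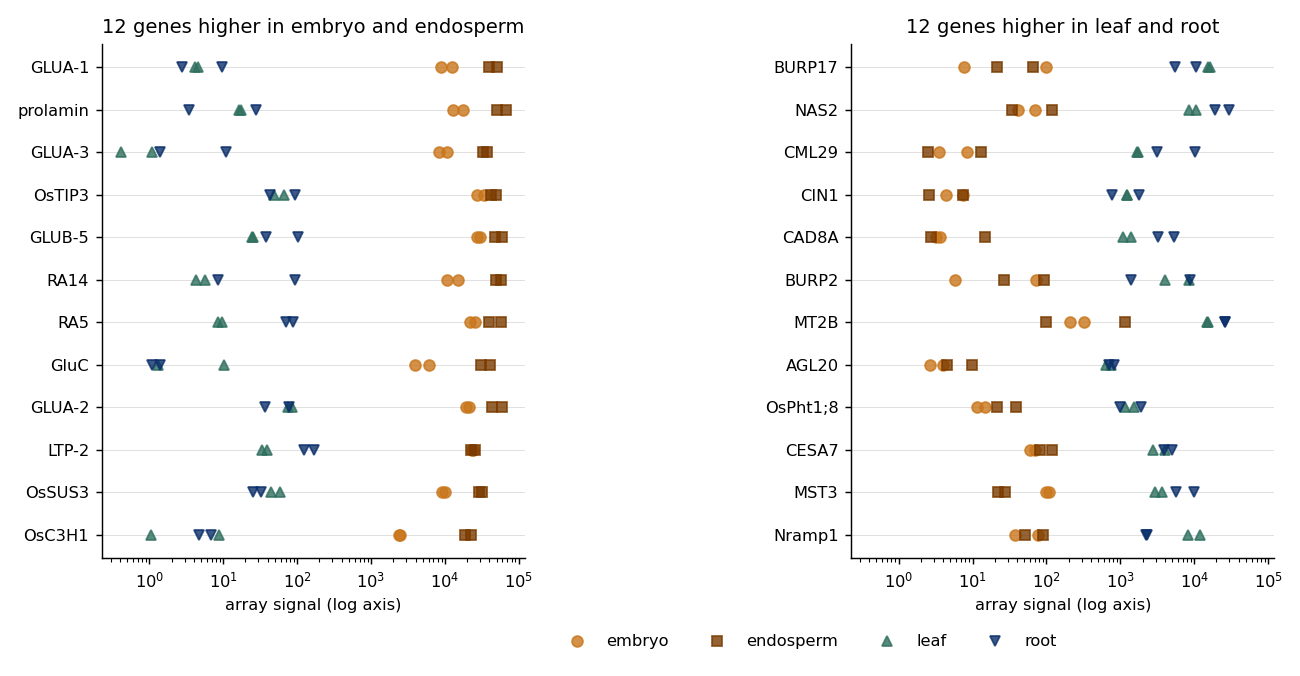
Signal of each of the 12 seed-high and 12 organ-high genes on each of the 8 arrays, on a log axis, with 1 marker per array shaped and coloured by tissue. Genes were chosen for having no overlap between seed and organ points, and the size of the gap is what the plot shows.

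The organ-high genes with the widest gaps were of many kinds. They were BURP17 (4349896, chromosome 11) and BURP2 (4338119, chromosome 5), of the plant-specific BURP domain family, NAS2 (4332607, chromosome 3), a nicotianamine synthase that makes the metal chelator nicotianamine, and CML29 (4341908, chromosome 6), a calmodulin-like protein. The cell wall invertase CIN1 (4329561, chromosome 2), the sugar transporter MST3 (4342198, chromosome 7) and the cinnamyl alcohol dehydrogenase family gene CAD8A (4346988, chromosome 9) also stood among the 12, with the metallothionein MT2B (4326409, chromosome 1), the MADS-box factor AGL20 (4331445, chromosome 3), the phosphate transporter OsPht1;8 (4348741, chromosome 10), the cellulose synthase CESA7 (4348853, chromosome 10) and the metal transporter Nramp1 (4342862, chromosome 7). Adjusted p in limma was at most 1.7e-05 over these 12.

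BURP17 gave 7.62 and 100.2 (embryo), 65.4 and 21.2 (endosperm), 15152 and 16349.9 (leaf) and 10422 and 5421 (root). The lowest organ array, 5421, was still far above the highest seed array, and the difference was -7.66 ± 0.46. NAS2 gave 69.4 and 41.2 (embryo), 117 and 34.7 (endosperm), 10577 and 8401 (leaf) and 19209.5 and 29620.1 (root), with root above leaf, and a difference of -7.63 ± 0.36. CIN1, which cleaves sucrose outside the cell, gave 7.49 and 4.37 (embryo), 2.57 and 7.35 (endosperm), 1219 and 1244 (leaf) and 1787 and 766 (root). Its 4 seed arrays were all under 8, leaf and root means lay within 2-fold of each other, and the difference was -5.83 ± 0.30. AGL20, the rice relative of the flowering gene SOC1, gave 3.96 and 2.63 (embryo), 4.5 and 9.79 (endosperm), 755 and 635 (leaf) and 827 and 699 (root). Leaf and root were again within 2-fold, and the difference was -5.14 ± 0.25. CESA7, a subunit of the enzyme that makes secondary wall cellulose, gave 59.1 and 69.9 (embryo), 81.8 and 121 (endosperm), 2769 and 4004 (leaf) and 4945 and 3937 (root), a difference of -5.32 ± 0.23. Nramp1 gave 37.7 and 75.9 (embryo), 88.6 and 52.1 (endosperm), 11878 and 8128 (leaf) and 2270.4 and 2204 (root). Leaf was the highest tissue for it, root was intermediate, and the difference was -5.93 ± 0.28. BURP2 varied most between repeats, with 5.79 and 73.3 (embryo), 94.1 and 26.9 (endosperm), 4022 and 8407 (leaf) and 8740.0 and 1396 (root), yet its lowest organ array was still well above its highest seed array. MT2B was the only 1 of these 12 with a seed array above 1000, at 1159 in endosperm 2. The remaining genes differed by -7.13 to -5.24.

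Gene lists were made from the gene symbols, 1 probe set per gene (that with the highest mean signal), and are described by counts and medians. Each count of seed against organ can be read against the 14.3% of tested probe sets that were seed-high and the 21% that were organ-high. Counts of embryo against endosperm can be read against the 20.1% of tested probe sets higher in embryo and the 16.3% lower. For leaf against root 10.9% were higher in leaf and 8.87% lower. The fullest contrast lay in the storage proteins. All 6 of 6 tested glutelin and prolamin genes were higher in seed, in each of the 4 pairs of a seed tissue with an organ, and the median difference was 9.66. The list largely repeats the 12 genes above and 3 of its 6 calls rest on probe sets of the cross-hybridizing kind. Among inhibitors of amylases and proteases, 5 of 11 were higher and 1 was lower. Without cross-hybridizing probe sets 3 were higher, and 2 were lower after median scaling or quantile normalization. RA17 (4342722, chromosome 7) of the inhibitor family gave 2620.0 and 2989 (embryo), 60056 and 39705 (endosperm), 23.9 and 2.09 (leaf) and 14.6 and 4.62 (root), so that embryo was 4.12 log2 units below endosperm, and the seed to organ difference was 8.82 ± 0.32. RA17, RA14 and RA5 lie within 6 places of each other on chromosome 7. The cysteine protease inhibitor gKOCIII (4339190, chromosome 5) was the member lower in seed, with 341 ± 24.9 (embryo), 736 ± 182 (endosperm), 2555 ± 353 (leaf) and 6204 ± 1439 (root) and a difference of -2.95 ± 0.20.

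Starch synthase isoforms lay on both sides. Of 13 genes for starch synthesis and turnover 7 were higher in seed (53.8%) and 2 lower, with a median of 1.42. The lower share, 15.4%, was under the 21% of all tested probe sets. The granule-bound synthase GBSS-I (4340018, chromosome 6), which makes amylose, gave 3658 and 2932 (embryo), 55104 and 40335 (endosperm), 46 and 5.53 (leaf) and 8.01 and 11.7 (root), a difference of 8.66 ± 0.34. The soluble synthase ALK (4340567, chromosome 6) gave 2030.2 and 1494 (embryo), 31628 and 25617 (endosperm), 8.76 and 5.28 (leaf) and 8.33 and 27.3 (root) and a difference of 8.02 ± 0.27. Both were over 10-fold higher in endosperm than in embryo and under 50 on every organ array. The soluble synthase SS1 (9269493, chromosome 6) had 6384 ± 668 (embryo), 20941 ± 5436 (endosperm), 621 ± 53.4 (leaf) and 452 ± 173 (root) and differed by 4.42 ± 0.22. On the other side stood SS2 (4330709, chromosome 2), a soluble synthase isoform, with 205 ± 22.4 (embryo), 105 ± 86 (endosperm), 1042 ± 17.9 (leaf) and 522 ± 2.79 (root) and a difference of -2.32 ± 0.32, and AP2-1 (4337654, chromosome 5), known as a repressor of starch genes in rice seed (RSR1), with 137 ± 38.9 (embryo), 136 ± 103 (endosperm), 2158 ± 87.6 (leaf) and 3260.2 ± 528 (root) and a difference of -4.23 ± 0.31. The count of lower genes was 4 in place of 2 without root 1. For sucrose cleavage and sugar transport 4 of 27 were higher and 8 lower, at a median of -0.57. The higher share, 14.8%, was near the 14.3% of all tested probe sets, and the lower share was 29.6% against 21%. The sucrose synthase OsSUS4 (4332788, chromosome 3) and the sucrose exporter OsSWEET15 (4329464, chromosome 2) accompanied OsSUS3, at 2.92 ± 0.19 and 3.88 ± 0.34. The sucrose synthase OsSUS6 (4331252, chromosome 2) was lower, at -3.72 ± 0.31, along with CIN1 and MST3.

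Embryo led the genes of seed maturation. Of 11 LEA and maturation genes 6 were higher in seed and 1 lower, at a median of 2.66. The median against the organs was 4.86 for embryo and 1.44 for endosperm, and 10 of the 11 were higher in embryo than in endosperm. The LEA gene EM (4338499, chromosome 5) gave 40454 and 30326 (embryo), 5704 and 4351 (endosperm), 1036 and 351 (leaf) and 451 and 394 (root), a difference of 4.67 ± 0.34. OsVP1 (4324314, chromosome 1), the factor that drives maturation and dormancy, gave 8764 and 7539 (embryo), 521 and 816 (endosperm), 16 and 6.53 (leaf) and 17.6 and 44.8 (root), and 6.06 ± 0.33. rab25 (4326935, chromosome 1), an abscisic acid responsive gene, differed by 6.31 ± 0.22. The dehydrin Dhn1 (4330265, chromosome 2) went the other way with 1388 ± 304 (embryo), 831 ± 298 (endosperm), 4932 ± 504 (leaf) and 9970.1 ± 1120.1 (root) and a difference of -2.72 ± 0.20. RAB16B (4350453, chromosome 11) averaged 2.01 ± 0.25 but was not counted, since endosperm (208 and 180) lay within the organ range while embryo reached 13453 and 14009. The alpha-amylases, which break starch down, parted within a pair of adjacent genes on chromosome 8. AMY3E (4345812, chromosome 8) gave 23353 and 18209 (embryo), 492 and 1220.4 (endosperm), 11.3 and 2.89 (leaf) and 78.3 and 33.1 (root), a difference of 6.68 ± 0.41. AMY3D (4345814, chromosome 8), its neighbour, gave 14.6 and 1.35 (embryo), 3.19 and 31.1 (endosperm), 35.6 and 66.1 (leaf) and 388 and 82.9 (root), a difference of -2.12 ± 0.49. The probe set of AMY3E is of the cross-hybridizing kind. AMY1A (4330832, chromosome 2) was at 15001 and 9999.7 in root and under 5 on all arrays of the other 3 tissues, and was not called, though it was without embryo 1 or leaf 2, after quantile normalization or without the side rule.

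Most genes of the machinery of protein production were not called. In the list for folding and glycosylation in the endoplasmic reticulum 5 of 25 genes were higher and 3 lower, with a median of 0.15 (-0.09 after median scaling and -0.45 with the spike-ins), and 1 was lower with the Gapdh covariate. The disulphide isomerase OsPDIL1-1 (4350002, chromosome 11), needed for glutelin maturation, was at 30071 ± 3885 (embryo), 46374 ± 2948 (endosperm), 11586 ± 733 (leaf) and 13616 ± 3556 (root) and differed by 1.58 ± 0.15. OsPDIL1-4 (4327971, chromosome 2), of the same family, differed by 2.66 ± 0.20. The stress sensor IRE1 (4343198, chromosome 7) and the ubiquitin ligase HRD1 (4340826, chromosome 6) were lower in seed, at -1.49 ± 0.18 and -1.25 ± 0.19. The proteasome list held 3 higher of 14 and none lower, at a median of 0.63, and 1 call in place of 3 without root 2 or with the Gapdh covariate. The remaining call was OsPBD1 (4333803, chromosome 3), a subunit of the proteolytic core, at 1.73 ± 0.18 (adjusted p = 2.55e-05 in limma). Of 24 ribosomal protein genes 4 were higher and none lower, with a median of 0.79. That count was 2 without endosperm 2, 1 after median scaling and 0 after quantile normalization or with the spike-ins. It was 11 with the Gapdh covariate and 10 without endosperm 1 and root 2. RPL5 (4325100, chromosome 1) differed by 1.20 ± 0.15.

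Photosynthesis genes were lower in seed, but the counts for the photosystems rested on single arrays. None of 11 photosystem and light-harvesting genes was higher in seed and 7 were lower, at a median of -2.72. This count fell to 3 without endosperm 1 and to 1 without root 1, and it was 1 when all 4 seed arrays had to lie below all 4 organ arrays. OSA15 (4337812, chromosome 5), a photosystem I subunit, gave 148 and 158 (embryo), 136 and 84.9 (endosperm), 2325 and 1531 (leaf) and 353 and 333 (root), a difference of -2.51 ± 0.27, with no overlap between arrays. The light-harvesting gene CAB2R (4324599, chromosome 1) gave 1149.5 and 714 (embryo), 3028 and 24306 (endosperm), 21118 and 18283 (leaf) and 15512 and 3976 (root). Its endosperm 2 signal exceeded both leaf signals, root repeats were also far apart, and it was not called at -2.14 ± 0.59, although it was without endosperm 2 or root 2. Of 12 Calvin cycle and photorespiration genes 9 were lower and none higher, at a median of -3.20, and 9 were higher in leaf than in root. Rubisco activase, OsrcaA1 (4351224, chromosome 11), gave 97.5 and 140.2 (embryo), 193 and 562 (endosperm), 22189 and 19312 (leaf) and 1275 and 1487 (root), a difference of -4.64 ± 0.29. Fd-GOGAT (4344164, chromosome 7), which assimilates ammonium in plastids, differed by -3.06 ± 0.30. For chlorophyll synthesis 5 of 15 were lower (3 with the Gapdh covariate) and 13 were higher in leaf than in root. GLK1 (4340977, chromosome 6), a transcription factor for chloroplast genes, was lower by -2.98 ± 0.36. It was 2.91 log2 units higher in leaf than in root, where its signals (70.9 and 85.4) were near those of endosperm 2 (51.3). Among FtsH and Clp proteases, which were listed by symbol and not by organelle, 2 were higher and 4 lower of 13. CLPD1 (4329520, chromosome 2) and CLPD2 (4335747, chromosome 4), Clp chaperone subunits, were the lowest at -2.44 ± 0.26 and -2.19 ± 0.31. FTSH3 (4327502, chromosome 1) was higher at 1.46 ± 0.30, and the other higher call was lost without leaf 2. With the Gapdh covariate 1 was higher.

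**Figure D3:**
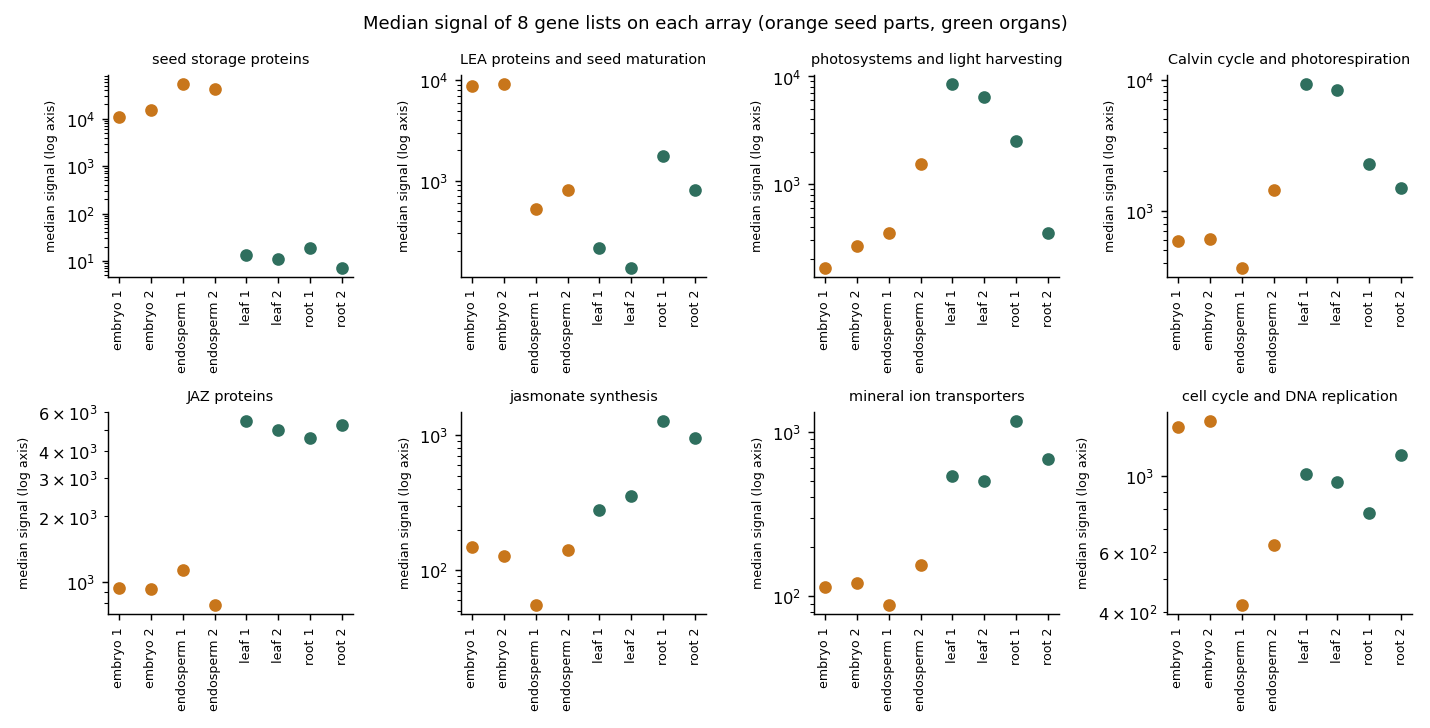
Median signal (log axis) over the genes of 8 lists on each of the 8 arrays, with seed arrays in orange and organ arrays in green. For the photosystem list endosperm 2 lies above endosperm 1 and root 1 above root 2, while the storage protein and JAZ lists show no overlap between seed and organ arrays.

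Transporters for water and minerals had far more members lower than higher in seed. Of 23 aquaporins 2 were higher and 10 lower, at a median of -1.55. The 2 higher ones were OsTIP3 and OsTIP3;2 (4336464, chromosome 4), both of the seed vacuole type, and OsTIP3;2 gave 3398 and 2885 (embryo), 1534 and 1819.6 (endosperm), 20.2 and 43.6 (leaf) and 41.1 and 54.1 (root), a difference of 5.41 ± 0.26. The silicon channel Lsi1 (4330713, chromosome 2) gave 42.6 and 31.2 (embryo), 22.4 and 118 (endosperm), 989 and 815 (leaf) and 17616 and 17769 (root), a difference of -6.03 ± 0.38. The plasma membrane channel OsPIP2;2 (4330049, chromosome 2) and the silicon channel Lsi6 (4340558, chromosome 6) differed by -5.50 ± 0.35 and -4.75 ± 0.26. Without probe sets of the cross-hybridizing kind 6 aquaporins in place of 10 were lower. None of 69 mineral ion transporters was higher and 37 were lower, at a median of -1.68, 20 of them in all 4 tissue pairs. Between 1 and 2 were called higher when embryo 2, endosperm 1, endosperm 2, leaf 2 or root 2 was left out, and 1 with the Gapdh covariate. The count was 4 without endosperm 1 and root 2 together. OsPht1;8, OsPht1;1 (4331635, chromosome 3) and Nramp1 had the widest gaps. OsPht1;1, a phosphate transporter, gave 173 and 223 (embryo), 152 and 174 (endosperm), 5448 and 4488 (leaf) and 5446 and 3739.8 (root), a difference of -4.60 ± 0.20. The silicon exporter Lsi2 (4331328, chromosome 3) and the aluminium transporter Nrat1 (4328200, chromosome 2) were at 4613 and 5726 and at 5751 and 4076 in root. Neither was counted, since leaf lay at or below the seed tissues.

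Iron chelator synthesis was among the lists furthest to the organ side. Of 6 genes for nicotianamine and phytosiderophores 5 were lower and none higher, at a median of -2.84. NAS1 (4332608, chromosome 3), which lies beside NAS2 on chromosome 3, gave 149.9 and 157 (embryo), 5448 and 2083 (endosperm), 10396 and 9121 (leaf) and 19356 and 19187 (root), a difference of -4.18 ± 0.29. Its endosperm signals were over 10-fold above its embryo signals, unlike those of NAS2. NAAT1 (9267778, chromosome 2), the aminotransferase of the pathway, differed by -2.48 ± 0.30. The iron regulator IDEF1 (4344415, chromosome 8) had signals of 427 ± 50.2 (embryo), 1084 ± 51.2 (endosperm), 836 ± 10.6 (leaf) and 225 ± 21.8 (root) and was not called. The CASP and CASP-like membrane proteins are a family named for members that build the Casparian strip of the root. Among 22 tested 1 was higher and 7 were lower. OsCASPL1U3 (4351033, chromosome 11) gave 14.1 and 12.9 (embryo), 3.11 and 33.3 (endosperm), 265 and 274 (leaf) and 8126 and 3185 (root), a difference of -5.33 ± 0.38. Its neighbour OsCASPL1U2 (4351034, chromosome 11) differed by -3.38 ± 0.35, with leaf and root means within 2-fold. OsCASPL5B3 (4346505, chromosome 9) was the member higher in seed, at 2.54 ± 0.22. The phosphate starvation regulators had 2 higher and 1 lower of 7, with 1 higher without embryo 1 or endosperm 2 and 2 lower without root 1. There were 1 higher and 2 lower after median scaling or with the spike-ins, where the list's median turned from 0.39 to -0.21 with the spike-ins, and none higher with the Gapdh covariate. OsPHR3 (4328249, chromosome 2), a factor of the phosphate response, gave 3.47 and 1.81 (embryo), 8.44 and 4.27 (endosperm), 501 and 472 (leaf) and 1079 and 1451 (root), a difference of -5.29 ± 0.26, while its relative PHR2 (4343086, chromosome 7) had 2534 ± 190.4 (embryo), 2530.0 ± 444 (endosperm), 2485 ± 208 (leaf) and 1958 ± 603 (root) and was not called.

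Cell wall genes were called in both directions. Of 26 members of the cellulose synthase superfamily 1 was higher and 12 were lower, at a median of -1.17. CESA7, CESA9 (4347093, chromosome 9) and CESA4 (4324625, chromosome 1), the 3 subunits that make secondary wall cellulose, held the widest gaps, and the other 2 differed by -4.70 ± 0.30 and -4.35 ± 0.25. CESA1 (4337958, chromosome 5), a primary wall subunit, had 4899 ± 111 (embryo), 8147 ± 1311 (endosperm), 11214 ± 316 (leaf) and 10010.3 ± 2595 (root) and was not called. CSLC9 (4334258, chromosome 3) was higher at 1.36 ± 0.22, and a further gene was called higher without endosperm 2. Of 23 expansins, which loosen walls, 5 were higher and 7 lower. The higher calls were 3 without embryo 2, endosperm 2 or leaf 1, 2 without root 2 or after median scaling, and 1 with the spike-ins or the Gapdh covariate. EXP5 (4330706, chromosome 2) was the clearest, with 13354 and 12818 (embryo), 6134 and 3084 (endosperm), 1212 and 1385 (leaf) and 1117 and 1608 (root) and a difference of 2.50 ± 0.23. The root expansin EXPB2 (4349348, chromosome 10) gave 9.67 and 5.76 (embryo), 6.99 and 7.57 (endosperm), 146 and 179.6 (leaf) and 8921 and 1348 (root), a difference of -5.07 ± 0.53. EXLA1 (4331516, chromosome 3) differed by -3.19 ± 0.35.

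**Figure D4:**
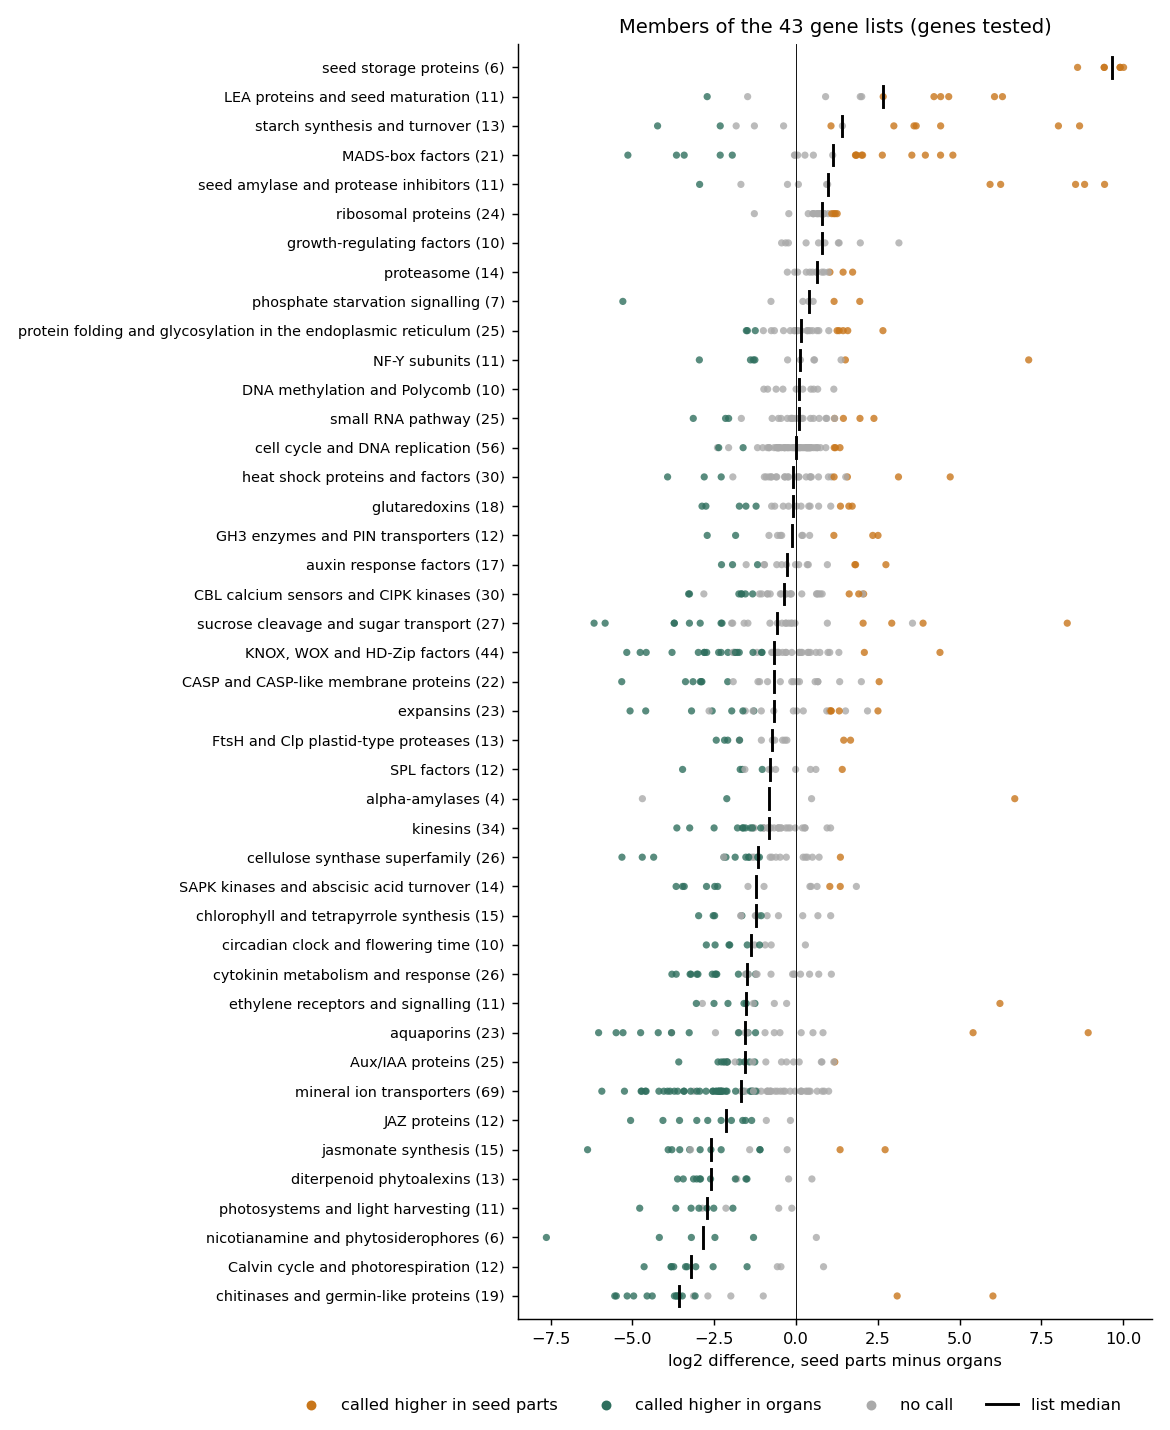
Log2 difference, seed minus organ, of every tested gene in the 43 lists, 1 point per gene, orange where called higher in seed, green where called lower and grey where not called, with the list median as a black bar. Storage proteins lie at the far right with a median of 9.66, and chitinases and germin-like proteins have the lowest median, -3.58.

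Jasmonate genes stood on the organ side. Of 12 JAZ proteins, the repressors of jasmonate responses that jasmonate itself induces, 10 were lower in seed and none higher, and all 10 were lower in each of the 4 tissue pairs. The median was -2.13. JAZ9 (4331832, chromosome 3) gave 84.9 and 84.5 (embryo), 501 and 202 (endosperm), 7918 and 6152 (leaf) and 4610.0 and 6151 (root), a difference of -5.06 ± 0.29. JAZ5 (4335698, chromosome 4) gave 8.28 and 5.21 (embryo), 7.21 and 17.6 (endosperm), 366 and 507 (leaf) and 362 and 406 (root), a difference of -4.07 ± 0.29, with all seed arrays under 18. EG2 (4337240, chromosome 4), which is JAZ1, had 16234 ± 1001 (embryo), 15427 ± 3445 (endosperm), 15777 ± 111 (leaf) and 20295 ± 5817 (root) and was not called. Among lipoxygenase, allene oxide and oxophytodienoate reductase genes 2 were higher and 10 lower of 15, at a median of -2.60. The reductase OPR-1 (4340485, chromosome 6) gave 7.28 and 5.33 (embryo), 54 and 18.5 (endosperm), 1297 and 1179.7 (leaf) and 13318 and 2668 (root), a difference of -6.37 ± 0.47. The allene oxide synthase genes AOS (4334233, chromosome 3) and AOS (4332121, chromosome 3) differed by -3.55 ± 0.21 and -3.79 ± 0.42. The reductase OPR7 (4329684, chromosome 2) was higher in seed at 1.35 ± 0.25.

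Cytokinin, ethylene and abscisic acid genes were also weighted to the organs. Of 26 cytokinin genes 14 were lower and none higher, at a median of -1.49, though 1 was called higher without endosperm 1 or root 1. LOGL3 (4331344, chromosome 3), an enzyme of cytokinin activation, gave 165 and 245 (embryo), 49.2 and 33.7 (endosperm), 1702 and 1897 (leaf) and 1198 and 972 (root), a difference of -3.66 ± 0.22. The cytokinin oxidase CKX4 (4326515, chromosome 1) differed by -3.03 ± 0.35. Of 11 ethylene genes 1 was higher and 6 were lower. The exception was the receptor ETR4 (4342865, chromosome 7), with 12006 and 8009 (embryo), 219 and 229 (endosperm), 3.29 and 3.34 (leaf) and 3.53 and 7.91 (root) and a difference of 6.23 ± 0.27. Embryo exceeded endosperm by 5.36 log2 units and the organs were under 8. Its fellow receptors ETR3 (4331174, chromosome 2) and ETR2 (4335058, chromosome 4) were lower at -2.51 ± 0.23 and -1.59 ± 0.22. For SAPK kinases and abscisic acid turnover 2 were higher and 6 lower of 14, and 1 was higher without embryo 1, endosperm 1 or root 2 or with the Gapdh covariate. OsSAPK5 (4337502, chromosome 4) gave 117 and 146 (embryo), 116 and 268 (endosperm), 2284 and 2162 (leaf) and 1851 and 2212 (root), a difference of -3.66 ± 0.26. OsSAPK7 (4335877, chromosome 4), of the same kinase family, was higher in seed at 1.35 ± 0.19. The zeaxanthin epoxidase ABA1 (4335984, chromosome 4), an enzyme of abscisic acid synthesis, was lower at -3.47 ± 0.30.

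Auxin genes had calls in both directions. Of 25 Aux/IAA repressors 1 was higher and 10 were lower, at a median of -1.57, and the higher call was lost without endosperm 1. The medians against the organs were -0.23 for embryo and -1.70 for endosperm, and 14 were higher in embryo than in endosperm. IAA2 (4326775, chromosome 1) gave 455 and 373 (embryo), 88.9 and 88.2 (endosperm), 2481 and 2730.0 (leaf) and 2146 and 2781 (root), a difference of -3.58 ± 0.19. Of 17 auxin response factors 3 were higher and 3 lower, at 17.6% each, near the 14.3% and 21% of all tested probe sets. ARF14 (4339313, chromosome 5) was the clearest, with 2124 and 1998 (embryo), 6405 and 2539 (endosperm), 433 and 409 (leaf) and 287 and 588 (root) and a difference of 2.75 ± 0.31. ARF24 (4352211, chromosome 12) was higher at 1.82 ± 0.16 and ARF10 (4336419, chromosome 4) lower at -2.28 ± 0.25. In the list of GH3 enzymes and PIN transporters 3 of 12 were higher (25%) and 2 lower (16.7%), with 1 lower without root 1. The median of this list changed sign between scalings. OsGH3-4 (4339234, chromosome 5), an enzyme that conjugates auxin, was higher with 953 ± 166 (embryo), 1557 ± 265 (endosperm), 238 ± 9.33 (leaf) and 214 ± 26.4 (root), a difference of 2.34 ± 0.24. The auxin transporter OsPIN5a (4324368, chromosome 1) was lower at -2.71 ± 0.25.

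MADS-box transcription factors lay on both sides, with more of them on the seed side. Of 21 tested 10 were higher and 5 lower, at a median of 1.12, and 12 were lower in embryo than in endosperm. MADS58 (4338067, chromosome 5), a floral organ identity factor, gave 808 and 1144 (embryo), 1087 and 2617 (endosperm), 89.8 and 121 (leaf) and 84.9 and 87.8 (root), a difference of 3.54 ± 0.31. AGL6 (4346134, chromosome 8) gave 207 and 121 (embryo), 1293 and 3271 (endosperm), 4.53 and 11.1 (leaf) and 2.23 and 5.98 (root), a difference of 4.79 ± 0.36. MADS24 (4347517, chromosome 9) differed by 4.42 ± 0.28, again with endosperm above embryo. On the organ side AGL20 was joined by FDRMADS8 (4349237, chromosome 10) and FDRMADS3 (4344493, chromosome 8), at -3.65 ± 0.39 and -3.42 ± 0.40. Of 11 NF-Y subunits 2 were higher and 4 lower, with 2 lower without embryo 1 or root 1. The list's median changed sign between scalings. NF-Y4 (4330587, chromosome 2), the endosperm subunit known as NF-YB1, gave 916 and 877 (embryo), 12642 and 15926 (endosperm), 6.98 and 2.38 (leaf) and 14.3 and 20.1 (root), a difference of 7.11 ± 0.31. CCB1 (9268285, chromosome 1) was higher at 1.51 ± 0.16.

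Among other developmental regulators, homeobox and SPL factors had more members lower than higher in seed. None of 10 growth-regulating factors was called either way, but all 10 were higher in embryo than in endosperm. Their median against the organs was 2.15 for embryo and -0.67 for endosperm, and 4 passed on average without meeting the side rule. GRF6 (4333990, chromosome 3) gave 13252 and 11774 (embryo), 880.5 and 914 (endosperm), 1886 and 2183 (leaf) and 2756 and 4785 (root), with embryo highest, endosperm lowest and the organs between. Of 44 KNOX, WOX and HD-Zip factors 2 were higher and 18 lower, at a median of -0.66. OsWOX10 (4345042, chromosome 8) gave 2984 and 1588 (embryo), 72.1 and 95.9 (endosperm), 18.3 and 4.26 (leaf) and 3.17 and 2 (root), a difference of 4.40 ± 0.34. OsWOX7 (4326320, chromosome 1), with embryo and endosperm within 2-fold, differed by 2.09 ± 0.34. OSH45 (4345191, chromosome 8), HOS59 (4341661, chromosome 6) and HOS66 (4331449, chromosome 3), all of the homeobox class, were lower at -4.76 ± 0.26, -4.58 ± 0.22 and -5.17 ± 0.36. HOS59 gave 283 and 354 (embryo), 231 and 461 (endosperm), 11322 and 11207 (leaf) and 5756 and 5770.3 (root). Of 12 SPL factors 1 was higher and 4 were lower, with 2 lower without endosperm 1 or root 2, and none higher and 2 lower with the Gapdh covariate. SPL2 (4327245, chromosome 1) was lower at -3.47 ± 0.30 and SPL15 (4346023, chromosome 8) higher at 1.41 ± 0.17.

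The cell cycle list did not follow the division. Only 3 of 56 genes were higher and 2 lower, while 26 were higher in embryo than in endosperm. The list's median was 0.00 and changed sign between scalings, and the lower calls were 1 without embryo 1 or with the Gapdh covariate and 0 without root 2. CDC2-1 (4331415, chromosome 3), a cyclin-dependent kinase, was higher with 4492 ± 194 (embryo), 5039 ± 649.7 (endosperm), 1568 ± 103 (leaf) and 2212 ± 95.7 (root), a difference of 1.34 ± 0.15. Of 34 kinesins, motor proteins of microtubules, 10 were lower and none higher, with 5 lower and 1 higher without root 2. With the Gapdh covariate 3 were lower and 1 higher, and after quantile normalization 6 and 1. KIN14M (4341280, chromosome 6) was lower at -3.64 ± 0.33. None of 10 DNA methylation and Polycomb genes was called, and the highest of them, MSI1 (4333540, chromosome 3), had 5586 ± 657 (embryo), 3428 ± 1369 (endosperm), 4724 ± 1087 (leaf) and 7124 ± 2712 (root). Of 25 small RNA genes 4 were higher and 3 lower (1 lower with the Gapdh covariate). AGO14 (4342603, chromosome 7) was higher at 2.38 ± 0.43 and AGO1D (4342138, chromosome 6) lower at -3.14 ± 0.31, both of them Argonaute proteins, and the Dicer DCL2A (4333337, chromosome 3) was lower at -2.15 ± 0.40. The medians of the last 2 lists, 0.10 and 0.08, turned negative after median scaling and with the spike-ins.

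Defence genes were chiefly on the organ side. Of 19 chitinases and germin-like proteins 2 were higher and 13 lower, at a median of -3.58, the lowest of the 43 lists, and 1 was higher without root 2 or with the Gapdh covariate. The germin-like GER3 (4344838, chromosome 8) was higher, with 13555 and 10345 (embryo), 44997 and 37070.0 (endosperm), 156 and 177 (leaf) and 1323 and 285 (root) and a difference of 6.02 ± 0.38. The other higher member, the chitinase Chib3H-h (4351187, chromosome 11), gave 90 and 146 (embryo), 2629 and 670.2 (endosperm), 3.14 and 22.5 (leaf) and 133 and 38.1 (root), with embryo 1 below root 1 and a difference of 3.09 ± 0.56. The chitinase Cht11 (4331519, chromosome 3) gave 8.32 and 24 (embryo), 2.03 and 34.8 (endosperm), 3436 and 2225 (leaf) and 584 and 882 (root), a difference of -5.54 ± 0.37. Cht2 (4349267, chromosome 10) differed by -5.49 ± 0.40. GER5 (4345763, chromosome 8) reached 14455 and 15152 in leaf but 19.9 and 188 in root, within the seed range, and was not counted. Of 13 diterpenoid phytoalexin genes 10 were lower and none higher, at a median of -2.61, and 8 were higher in root than in leaf. Only 3 were lower in all 4 tissue pairs, and 6 when the side rule was applied to single arrays. The list's median signal was 86.5 and 91.9 on the leaf arrays and 293 and 421 on the root arrays. CYP71Z7 (4329726, chromosome 2), a cytochrome P450 of the pathway, gave 28.6 and 56.1 (embryo), 35.1 and 24.1 (endosperm), 176 and 279 (leaf) and 1433 and 1821 (root), a difference of -3.62 ± 0.28.

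Heat shock genes, glutaredoxins, clock genes and calcium sensors completed the lists. Of 30 heat shock genes 4 were higher and 3 lower (5 lower without embryo 2), and the list's median changed sign between scalings relative to all probe sets, as did that of the glutaredoxins. The small heat shock gene HSP16.9A (4325697, chromosome 1) gave 15961 and 14368 (embryo), 13528 and 13423 (endosperm), 80.7 and 121 (leaf) and 4185 and 1579.8 (root), a difference of 4.71 ± 0.29. HSP17.9B (4325695, chromosome 1), 2 places away on chromosome 1, gave 62.9 and 61.6 (embryo), 114 and 212 (endosperm), 1930.2 and 2254 (leaf) and 2453 and 871 (root), a difference of -3.93 ± 0.32. The disaggregase CLPB1 (4339343, chromosome 5) was higher at 3.13 ± 0.32. Of 18 glutaredoxins 3 were higher and 5 lower, with GRXS6 (4330145, chromosome 2) at 1.72 ± 0.17 and GRXS5 (4326324, chromosome 1) at -1.53 ± 0.18. None of 10 clock and flowering genes was higher and 6 were lower, with 3 lower with the Gapdh covariate and 2 when the side rule was applied to single arrays. GI (4325329, chromosome 1), the clock and flowering regulator GIGANTEA, gave 2559 and 1546 (embryo), 1271 and 1744 (endosperm), 13223 and 12885 (leaf) and 6929.9 and 7295 (root), a difference of -2.47 ± 0.19. The hour of harvest is not given in the sources used here. Of 30 CBL sensors and CIPK kinases 3 were higher (5 without endosperm 2) and 7 lower. CIPK6 (4345687, chromosome 8) was higher at 2.07 ± 0.28 and CIPK17 (4337736, chromosome 5) lower at -3.28 ± 0.38.

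Several pairs of neighbouring genes, at most 5 places apart in the gene table, lay on opposite sides of the comparison. Beside the amylase and heat shock pairs these were Nramp1 and ETR4 on chromosome 7, EXP5 and SS2 on chromosome 2, EXLA2 and Cht2 on chromosome 10, OsSUS4 and CIPK10 (4332786, chromosome 3) on chromosome 3, and OsWOX7 and GRXS5 on chromosome 1. These pairs were noted only among the named genes and no test was made of them. The seed-high call of EXLA2, at 1.07, was lost without embryo 1, embryo 2, endosperm 1, leaf 1 or root 2. It was also lost with the Gapdh covariate, after median scaling and with the spike-ins. Pairs on the same side included NAS1 with NAS2, RA17 with RA14, and OsCASPL1U3 with OsCASPL1U2.

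Within the seed-high set embryo and endosperm were unequal more often in 1 direction. Endosperm was higher than embryo for 1316 of the 4306 probe sets (30.6%) and lower for 516 (11.98%). Over all tested probe sets the order was reversed, with embryo lower for 16.3% and higher for 20.1%. In the organ-high set embryo was higher for 1164 (18.4%) and lower for 559 (8.86%). Leaf was higher than root for 981 organ-high probe sets (15.5%) and lower for 767 (12.2%), against 10.9% and 8.87% of all tested. In the seed-high set root was higher than leaf for 371 (8.62%) and lower for 124 (2.88%). These counts describe sets that were chosen on the same arrays and were not tested against each other. Leaving out single arrays moved them. Seed-high probe sets higher in embryo were 334 without embryo 1. Organ-high probe sets higher in leaf were 413 without leaf 1 and 471 without leaf 2, and those higher in root were 277 and 295 without the same arrays and 505 without root 1.

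**Figure D5:**
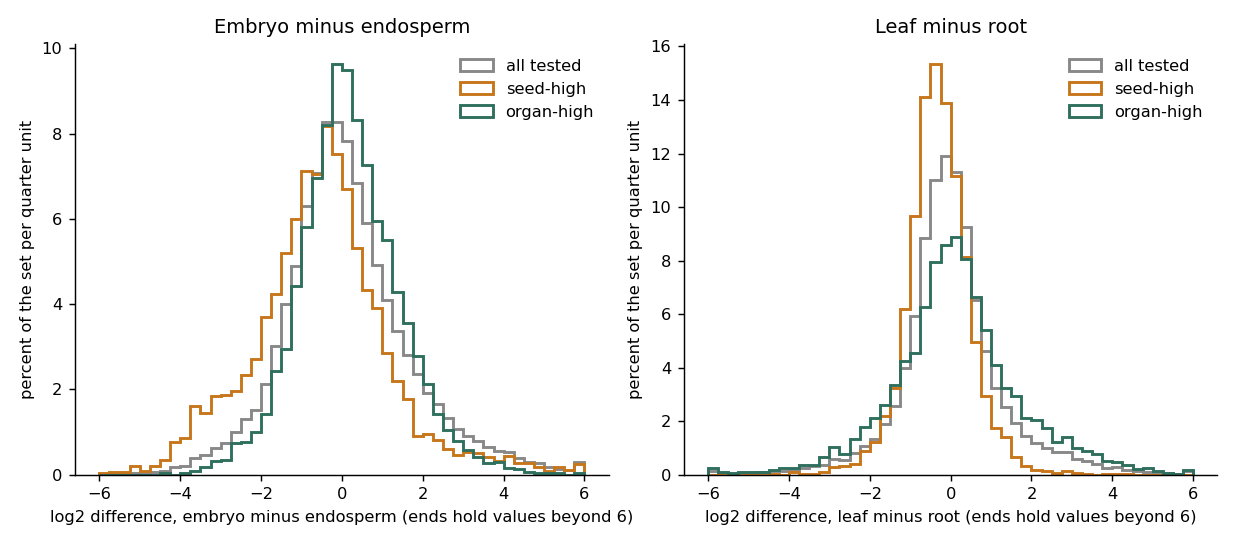
Distribution of the log2 difference embryo minus endosperm (left) and leaf minus root (right), as percent of the probe sets per bin, for all tested (grey), seed-high (orange) and organ-high (green) probe sets. On the left the seed-high curve is shifted below zero, where 1316 were called against 516 above it.

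Markers of endosperm were present on the embryo arrays. Embryo signals were 6.16% of the endosperm signal for ALK, 6.91% for GBSS-I, 6.28% for NF-Y4, 14% for GluC and 23.9% for GLUA-1. The MADS-box gene FST (4328443, chromosome 2) was chosen as a marker of maternal seed tissue that either seed part could hold. Its mean signal was 96.6 in embryo and 1281 in endosperm, so that embryo was at 7.54% of endosperm. In the other direction endosperm signals were 0.274% of the embryo signal for the shoot meristem gene OSH1 (4333973, chromosome 3), 2.61% for OsWOX6 (4332705, chromosome 3) and 16.1% for the epidermal factor GL2-1 (4344832, chromosome 8). The symbol HAP3, also chosen as an embryo marker, gave both directions. Endosperm was at 15.8% of embryo for gene 4339676 but at 314% for gene 9268669, with 3051 in embryo and 9591 in endosperm. In the seed-high set 306 probe sets (7.11%) had an embryo signal under 10% of that in endosperm, and 140 (3.25%) the reverse, while 3224 (74.9%) were within 4-fold of each other. How embryo and endosperm were separated is not given in the sources used here, and the part of carried-over tissue in the seed-high set was not tested. OsrcaA1 and GLN2 (4337272, chromosome 4), the plastid glutamine synthetase, were highest in leaf, and Lsi1, Lsi2 and Nrat1 were highest in root. Root 1 also carried photosystem signal, with CAB2R at 15512 and GOS5 at 4354, against 3976 and 306 in root 2.

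The side rule removed 872 probe sets that were higher in seed on average and 1557 that were lower, from 5178 (17.3%) and 7867 (26.2%). Of those removed on the seed-high side, embryo alone was not beyond both organs for 450, endosperm alone for 407 and neither for 15. On the organ-high side embryo alone failed for 1006, endosperm alone for 408 and both for 143. A stricter reading asks for a call in each of the 4 pairs of a seed tissue with an organ. It held for 1293 probe sets higher in seed (4.31%), of 689 genes, and 2594 lower (8.64%), of 1910 genes. Over all tested probe sets the tissue means correlated at 0.772 between embryo and endosperm and at 0.814 between leaf and root. Across the divide they correlated at 0.559 (endosperm with leaf) to 0.660 (embryo with root). These correlations run over probe sets within tissues, are given without a test, and share the scaling of each array.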

How the data were processed

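The deposited values were microarray signal intensities, made by the authors with MAS5 (version not given) per the submitters' processing notes. RNA was extracted with TRIzol and labelled with biotin for an Affymetrix rice genome array, per the labels' protocols. The trimmed mean (2% to 98%) of every deposited array was 500. Of 57381 probe sets 123 were controls. Detection calls and scanner files were not used here.

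To these values 16 was added and log2 taken. One limma model (limma 3.58.1, R 4.3.3) gave a mean to each of the 5 tissues over 10 arrays, and eBayes was run with a trend on mean intensity. The spread had 5 residual degrees of freedom, to which the prior added 5.145. The contrast was the mean of embryo and endosperm minus the mean of leaf and root. P-values were adjusted by the Benjamini-Hochberg method over all tested probe sets. Genes were named through the platform's annotation (22436 probe sets with exactly 1 gene, 3159 with a readable symbol) and a gene table of assembly ASM3414082v1, which gave symbols, chromosomes and the order of genes. The deposited values name no genome build, so no coordinates are printed.

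Named genes were the 12 widest gaps in each direction, and, within each of 43 lists, up to 3 higher and 3 lower by gap and the member without a call of highest mean, of which part is printed, together with tissue markers. The members and lists were chosen with earlier results of these data known. The lists rest on symbols and so hold only genes with a readable one. A planned description of promoter sequences was not made, for want of a sequence table. Replicate numbers were not stated to pair arrays, and the fit had no block. After each tissue's mean was removed, same-numbered arrays of different tissues correlated at -0.108 to 0.0962. With 2 repeats per tissue, of unequal quality in endosperm and root, these values cannot decide whether arrays were paired. The 28 alternatives made with the design changed the pseudocount, floor, scaling, filter, trend, weights, thresholds, arrays in the fit, side rule or probe sets, added a block or covariate, or left out each array. The 2 that left out endosperm 1 with root 2, or endosperm 2 with root 1, were chosen after seeing the data.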

Additional observations from a re-analysis of the deposited data

Results flagged for a closer look

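Among the 24 genes with the widest gaps, 16 differences between the tissues of 1 side passed the same threshold as the main comparison. They mean that the seed to organ difference was not of 1 size for both seed tissues, or for both organs. Each is the limma test of that difference over all tested probe sets, in log2 units.

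Embryo minus endosperm, which is also embryo minus organs less endosperm minus organs, was -2.08 for GLUA-1 (adjusted p = 0.0011), -1.96 for prolamin (0.0249), -1.92 for GLUA-3 (0.00262), -1.31 for GLUA-2 (0.0101) and -2.85 for GluC (0.00028). It was -2.05 for RA14 (0.0158), -1.02 for RA5 (0.0351), -1.66 for OsSUS3 (0.00321) and -3.05 for OsC3H1 (0.000116). In all of these endosperm was the higher seed tissue on both repeats. For the organ-high sugar transporter MST3 the sign was opposite, 1.55 (0.00341), with embryo at 99.6 and 107 and endosperm at 27.4 and 22.4.

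Leaf minus root was -1.93 for RA5 (adjusted p = 0.00302) and -1.62 for LTP-2 (0.0023), both at low organ signals. It was -1.71 for CML29 (0.0344), -1.75 for CAD8A (0.0248) and -1.2 for MST3 (0.0227), with root higher. Nramp1 alone of the organ-high genes was higher in leaf, at 2.13 (0.00407). Outlying arrays could not be looked for, since each tissue had 2.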

How the results depend on the processing

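Of 190 named probe sets with a call, 128 kept it in each of the 30 alternatives in which they were tested, and none of the 190 changed direction. Calls were lost most often by limma's treat against 2-fold (45 probe sets) and spike-in scaling (30). The counts of seed-high and organ-high probe sets were 1793 and 3677 under treat, and 450 and 1110 in all 4 tissue pairs. With the spike-ins 1963 were seed-high, 597 of them in all 4 pairs, and at an adjusted p under 0.01 the seed-high count in all 4 pairs was 841. Seed-high probe sets also higher in embryo numbered 197 under treat, 329 with the spike-ins, 297 with the side rule on single arrays and 899 without it, and those higher in endosperm 499 under treat, 514 with the spike-ins and 864 after median scaling. Organ-high probe sets higher in leaf numbered 289 under treat, 538 at the stricter p, 431 with the side rule on single arrays and 1644 without it. Those higher in root numbered 190 under treat, 351 at the stricter p, 420 with the Gapdh ratio as a covariate and 1310 without endosperm 1 and root 2. These settings are stricter or looser by construction, except the scalings, the covariate and the arrays left out, for which the cause was not tested.

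Leaving out 1 array at a time gave 4042 to 4639 seed-high and 5842 to 6638 organ-high probe sets, and 927 to 1411 and 1979 to 2894 in all 4 pairs. Within the sets the ranges were 334 to 577 (embryo), 906 to 1430 (endosperm), 413 to 1280 (leaf) and 277 to 986 (root). With the replicate number as a block the counts were 4299 seed-high and 6315 organ-high, 1257 and 2580 in all 4 pairs, and 515, 1302, 965 and 758 within the sets, all within 1.5 times the counts without a block. The replicate numbers were not stated to pair arrays.

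Of the named genes without a call, EG2 turned to 0.17 and MSI1 to 0.13 with the Gapdh covariate, MSI1 to 0.0059 without endosperm 1 and root 2, GRF6 to -0.28 with the spike-ins, and PHR2 to -0.037 after median scaling and -0.39 with the spike-ins. Detection calls were not used, so low signals were not set against background.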

Other observations

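The whole seedling at 10 days, which entered the filter and the estimate of spread but not the contrast, is given here as values without a test. The shares below are within the called sets. The same shares over all tested probe sets were not computed, so whether the called sets differ from them is not known. Its mean lay below both seed tissues for 4049 of the 4306 seed-high probe sets (94%), and at or below the higher organ for 2867 (66.6%). It lay above both seed tissues for 6004 of the 6310 organ-high probe sets (95.2%).

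Some genes departed from this. Of the seed-high probe sets 153 (3.55%) were at least 2-fold higher in the seedling than in both organs. CPDK2, a calcium-dependent protein kinase (4333181, chromosome 3), had 1106 and 1396 in embryo, 747 and 592 in endosperm, 43.3 to 100.5 on the organ arrays, and 1458 and 1619 in the seedling. The small heat shock gene HSP17.9A had 18696 and 15614 in the seedling, above every seed array (6721 to 11588) and organ array (1932 to 5538).

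Of the organ-high probe sets 21 (0.333%) were at least 8-fold lower in the seedling than in both organs, and 55 (0.872%) at least 4-fold. NAS2 had 491 and 211 in the seedling against 8401 to 29620 on the organ arrays. NAS1 had 782 and 436 against 9121 to 19356. Nramp1 had 159 and 104 against 2204 to 11878. IRT2, an iron transporter (4333667, chromosome 3), had 1.18 and 25.7 against 179 to 2472. The transporter gene osysl15 (9268232, chromosome 2) had 102 and 42.1 against 597 to 2853. NAAT1 had 847 and 1158 against 5388 to 10782. These genes were picked after their values were seen, from the 12 lowest by that difference with a readable symbol, and both the age and the organs sampled differ between these arrays. Over the nicotianamine and phytosiderophore list the median signal was 750 and 621 in the seedling. It was 482 to 1021 on the seed arrays and 3598 to 9560 on the organ arrays.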
